A study of Mus musculus with 6 samples.

Results

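The 9 genes described here make up the core of the osteoclast programme: Acp5, Ctsk, Nfatc1, Tnfrsf11a, Dcstamp, Ocstamp, Oscar, Atp6v0d2 and Mmp9. They were taken by gene symbol from a table of 16978 genes, and all 9 are listed there. Of these, 8 had at least 15 counts over the 6 libraries and were tested among 13866 genes, and Oscar was not. The libraries come from BMDM, macrophages grown from the bone marrow of wild type C57BL/6 mice, kept in 25 ng/ml M-CSF and collected on day 7. The cells were treated with 200 ng/ml IL17B for 6 hours (3 samples) or with PBS as the control (3 samples), and no RANKL was named among the additions to the culture. The table gives estimated counts (20271411 to 20653322 in total per library) and TPM, which is scaled for gene length. CPM below is the count scaled to the normalized library size.

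Osteoclasts are the giant cells that dissolve bone, and they form by fusion of cells of the macrophage lineage. M-CSF keeps the precursors alive and lets them carry RANK, and RANK ligand (RANKL) then switches on NFATc1, the master transcription factor of the programme. NFATc1 drives the genes for fusion (Dcstamp, Ocstamp, Atp6v0d2), for the costimulatory receptor OSCAR and for the enzymes that resorb bone (Ctsk, Acp5, Mmp9). BMDM are the usual starting cells for making osteoclasts in culture.

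The results showed RNA of most members in BMDM, with a few defining genes of the mature cell near 0. The 6 libraries held no osteoclast sample to compare with, so these levels do not show how far the programme was on. Atp6v0d2, Tnfrsf11a, Nfatc1, Ctsk and Acp5 were at 25 TPM or more in each library, Dcstamp was at 7.28 to 14.24 TPM, and Mmp9, Ocstamp and Oscar were below 2 TPM. IL17B treatment left no member past the test. By edgeR's quasi-likelihood test with adjustment over all genes, 0 of the 8 tested members were called, against 0.0% of the 13866 genes, and 0 of the 8 had an unadjusted p under 0.05, against 5.24% of all genes (2.96% higher and 2.28% lower). DESeq2 and limma-voom also called 0 members. The fold changes of the 5 members at 25 TPM or more lay between 1.00 and 1.06 (IL17B over PBS), and their 95% intervals between 0.879 and 1.18. Separate cultures or mice are not stated for the samples of 1 treatment, so the p-values cover the spread among these 6 samples alone, and that spread may be technical.

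**Figure D1:**
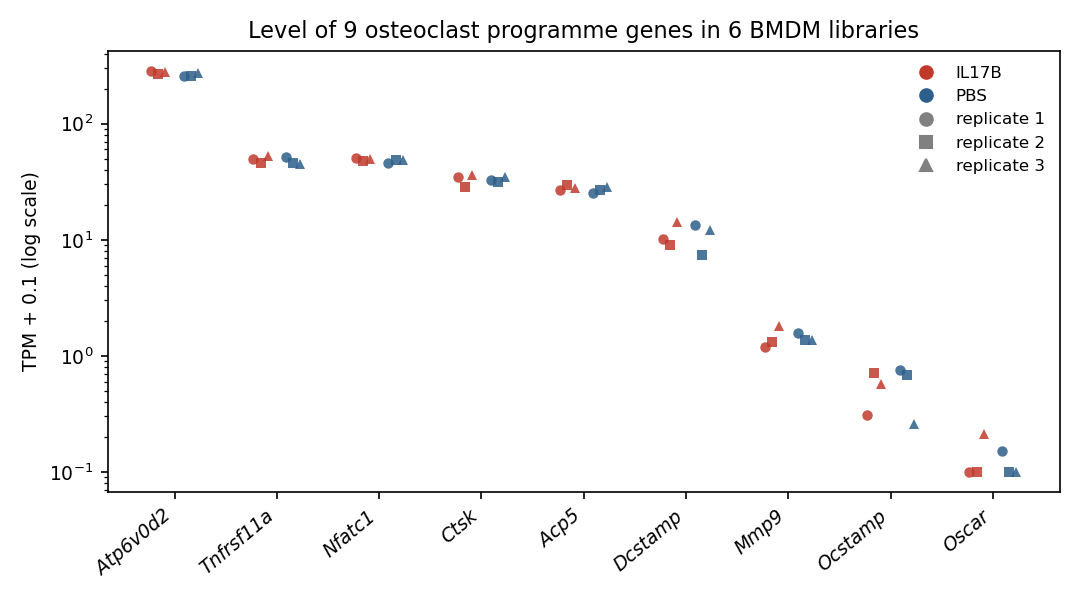
TPM plus 0.1 on a log scale for the 9 genes in each of the 6 libraries, with IL17B on the left and PBS on the right of each pair and a symbol for each replicate number. Atp6v0d2 stands above the rest at 255 to 286 TPM, and Oscar is at 0 TPM in 4 libraries (drawn at 0.1).

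On the TPM scale, the members came in a fixed order with 2 pairs of neighbours that could not be told apart. Atp6v0d2 was at 255 to 286 TPM, and 2.98% of the genes in the table had a higher mean TPM. Tnfrsf11a (48.4 ± 3.16 TPM, SD over the 6 libraries) and Nfatc1 (48.3 ± 1.62 TPM) overlapped, and Tnfrsf11a was the higher in 2 of the 6 libraries. Ctsk (32.9 ± 2.79 TPM) and Acp5 (27.4 ± 1.49 TPM) also overlapped, with Ctsk higher in 5 of 6. Dcstamp (11.0 ± 2.68 TPM), Mmp9 (1.34 ± 0.210 TPM), Ocstamp (0.448 ± 0.214 TPM) and Oscar (0.0267 ± 0.0455 TPM) followed, each with all its values below those of the gene before it. The 9 genes together made up 458, 433 and 462 TPM in IL17B replicates 1, 2 and 3, and 426, 419 and 442 TPM in PBS replicates 1, 2 and 3, and the groups overlapped. Between 60.0% and 62.5% of each sum was Atp6v0d2.

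Upstream sequences are shown for 4 members: the receptor gene Tnfrsf11a, the enzyme genes Ctsk and Acp5, and Oscar, which was near 0. RefSeq's promoter table for GRCm38.p6 held windows for these 4 of the 9 members. Each window runs from 250 bases before to 50 bases after an annotated start and is written 5′ to 3′ on the gene's strand. Capitals mark matches, on either strand, to 5 motifs of factors known in osteoclasts or of the core promoter: the NFAT core GGAAA, AP-1 TGANTCA, PU.1 GAGGAA, the MITF E-box CATGTG and the TATA box TATAAA. The windows lie at chr1:105780473-105780772 (plus strand) for Tnfrsf11a, chr3:95498960-95499259 (plus strand) for Ctsk, chr9:22130549-22130848 (minus strand) for Acp5 and chr7:3616108-3616407 (minus strand) for Oscar.
Tnfrsf11a: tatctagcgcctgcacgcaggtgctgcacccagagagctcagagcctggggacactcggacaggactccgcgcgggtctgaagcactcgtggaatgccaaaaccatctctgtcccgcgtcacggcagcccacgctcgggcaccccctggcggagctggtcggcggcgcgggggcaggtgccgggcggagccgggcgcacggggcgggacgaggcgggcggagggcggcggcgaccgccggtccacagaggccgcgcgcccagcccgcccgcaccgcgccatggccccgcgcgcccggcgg
Ctsk: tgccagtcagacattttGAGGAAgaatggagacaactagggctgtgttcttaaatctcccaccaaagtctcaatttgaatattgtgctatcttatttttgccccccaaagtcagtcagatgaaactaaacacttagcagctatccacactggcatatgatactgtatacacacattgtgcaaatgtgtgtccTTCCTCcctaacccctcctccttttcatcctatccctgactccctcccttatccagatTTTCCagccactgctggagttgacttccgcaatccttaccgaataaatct
Acp5: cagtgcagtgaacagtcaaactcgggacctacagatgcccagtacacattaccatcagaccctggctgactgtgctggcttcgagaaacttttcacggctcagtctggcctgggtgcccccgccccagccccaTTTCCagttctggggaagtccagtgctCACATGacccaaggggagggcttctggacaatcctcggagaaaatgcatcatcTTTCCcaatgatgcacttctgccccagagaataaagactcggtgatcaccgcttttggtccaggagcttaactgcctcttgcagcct
Oscar: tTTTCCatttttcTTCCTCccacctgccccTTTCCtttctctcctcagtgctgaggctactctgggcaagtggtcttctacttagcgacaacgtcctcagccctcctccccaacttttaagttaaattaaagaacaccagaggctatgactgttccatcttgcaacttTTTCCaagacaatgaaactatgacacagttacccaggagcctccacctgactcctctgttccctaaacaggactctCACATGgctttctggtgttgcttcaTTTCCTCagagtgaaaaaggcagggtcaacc

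The Tnfrsf11a window is 76.7% G and C and held no match to the 5 motifs. The Ctsk window is 43.7% G and C and held 2 PU.1 matches and 1 NFAT core match. In the Acp5 window 2 NFAT core matches and 1 MITF E-box were found, and the other 2 Acp5 windows of the table (chr9:22131816-22132115 and chr9:22135697-22135996) held 1 NFAT core match each. The Oscar window had the most matches, with 4 to the NFAT core, 2 to PU.1 and 1 to the MITF E-box. One PU.1 match of Oscar shares bases with an NFAT core match, since both hold GGAA. Over 32851 promoter windows of this length, 61.3% held the NFAT core, 28.3% PU.1, 14.2% the MITF E-box, 13.6% TATAAA and 7.81% AP-1, and no window of these members held AP-1 or TATAAA. Oscar, with the most matches, had the lowest TPM of the 9 genes. Matches describe the letters of these windows alone, and binding was not measured.

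Tnfrsf11a encodes RANK, the receptor for RANKL (gene ID 21934, chromosome 1 of GRCm38.p6 from 105780673 to 105849444). It was at 117, 112 and 125 CPM in IL17B replicates 1, 2 and 3, and at 127, 108 and 109 CPM in PBS replicates 1, 2 and 3. The highest value was in a PBS library and the groups overlapped. The log2 fold change was 0.04 ± 0.07 (SE; edgeR adjusted p = 0.989). Oscar, whose product pairs with the FcRγ chain to costimulate osteoclast precursors (gene ID 232790, chromosome 7 from 3609813 to 3616157), had 0, 0 and 2 counts with IL17B and 1, 0 and 0 counts with PBS. A count of 0 allows up to 3 counts, or 0.146 to 0.147 CPM in these libraries. A difference in Oscar among counts this low was thus not detectable at this depth. Such floors cover counting error only.

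Nfatc1, the transcription factor at the head of the programme (gene ID 18018, chromosome 18 from 80606205 to 80713071), was the most even member. It was at 107, 106 and 106 CPM in IL17B replicates 1, 2 and 3, and at 101, 105 and 105 CPM in PBS replicates 1, 2 and 3. Each IL17B library was above each PBS library, by a small step (log2 fold change 0.04 ± 0.04 (SE), edgeR adjusted p = 0.988, 95% interval of the fold 0.965 to 1.10). On the TPM scale the groups overlapped, with 50.10, 47.75 and 49.36 TPM with IL17B and 45.46, 48.95 and 48.22 TPM with PBS. Its CV over the 6 libraries was 2.09% in CPM, about what counting alone gives (2.16%).

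Atp6v0d2 encodes the d2 subunit of the V-ATPase proton pump and is needed for fusion of osteoclast precursors in mice (gene ID 242341, chromosome 4 from 19876838 to 19922566). It was at 345, 340 and 342 CPM in IL17B replicates 1, 2 and 3, and at 319, 312 and 336 CPM in PBS replicates 1, 2 and 3. All 3 IL17B libraries were above all 3 PBS libraries, and the lowest IL17B value exceeded the highest PBS value by less than the SD of the PBS libraries (12.2 CPM). The log2 fold change of 0.09 (SE 0.05) was the highest of the 8 tested members, with an unadjusted p of 0.0849 (edgeR adjusted p = 0.96) and a 95% interval of the fold of 0.99 to 1.14. In TPM the groups overlapped (286, 271 and 280 TPM with IL17B, 255, 257 and 272 TPM with PBS). Atp6v0d2 and Nfatc1 were the only members whose CPM groups did not overlap, which is 2 of 8, both higher, against 9.92% of all tested genes in either direction, 5.16% higher and 4.77% lower. On the TPM scale 0 of the 8 members stood apart, against 8.94% of the tested genes in either direction and 4.64% higher. In the deposited FPKM the same 2 members stood apart, both higher, against 9.3% of the tested genes in either direction and 4.68% higher. The count of 2 was thus lost in TPM and kept in FPKM.

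The d subunit of the pump is made from 2 genes, and Atp6v0d1 is the form found in most cell types. Atp6v0d1 was at 220 ± 7.02 TPM with IL17B and 233 ± 11.4 TPM with PBS (SD, n = 3 each). Atp6v0d2 therefore gave 57.4%, 54.8% and 55.4% of the summed TPM of both genes in IL17B replicates 1, 2 and 3, and 53.8%, 51.6% and 53.5% in PBS replicates 1, 2 and 3. In these macrophages Atp6v0d2 was the more abundant of the pair in each library. All IL17B shares were above all PBS shares, by a step that was not tested, and the share was computed after both genes had been seen.

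**Figure D2:**
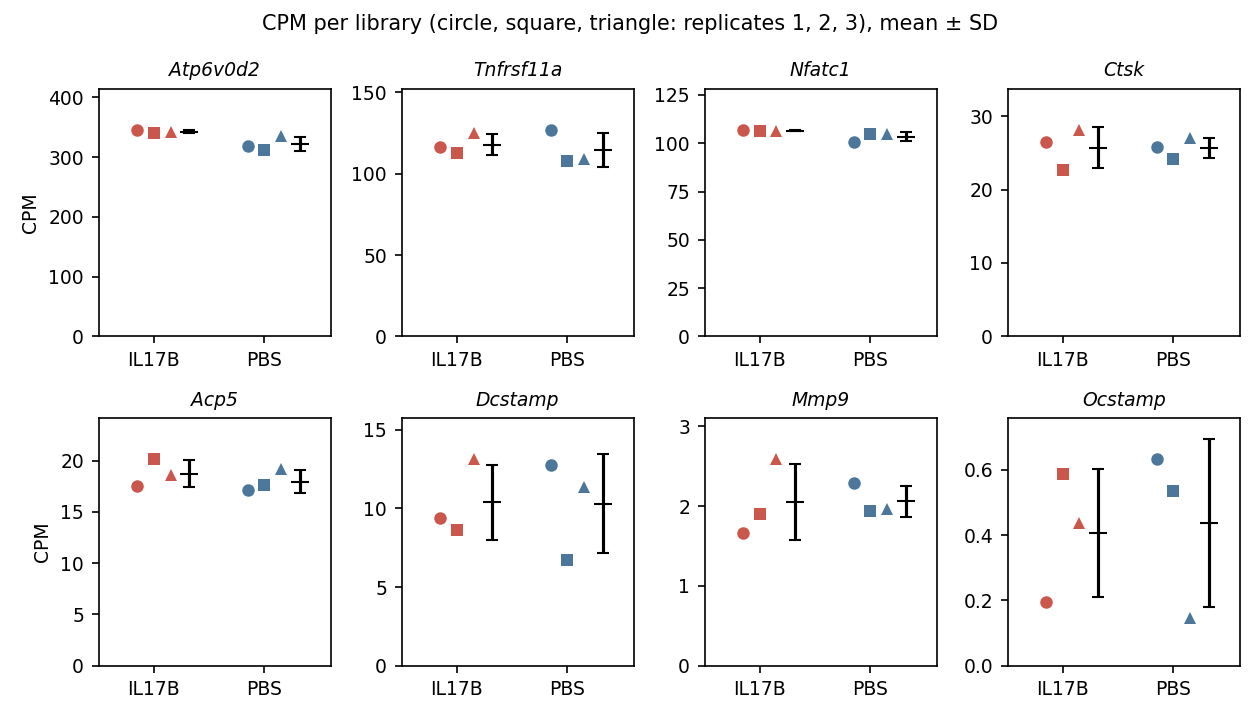
CPM of the 8 tested genes in each library (circle, square and triangle for replicates 1, 2 and 3; IL17B left, PBS right) with the mean and SD of the 3 libraries beside them; every axis starts at 0. Atp6v0d2 and Nfatc1 are tight, and Dcstamp lies between 6.74 and 13.1 CPM across libraries of both treatments.

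The fusion genes Dcstamp and Ocstamp had the highest CV of the 8 tested members over the 6 libraries. That of Atp6v0d2, also a gene for fusion, was 4.08%. Dcstamp encodes DC-STAMP, a multipass membrane protein without which mouse osteoclast precursors do not fuse (gene ID 75766, chromosome 15 from 39745930 to 39760938). Its counts were 192, 177 and 269 in IL17B replicates 1, 2 and 3, and 263, 139 and 232 in PBS replicates 1, 2 and 3. The highest library (13.1 CPM, IL17B replicate 3) was 1.94 times the lowest (6.74 CPM, PBS replicate 2), and both treatments held high and low libraries. This CV was 24.2% for Dcstamp, where counting alone gives 6.87%. The spread that edgeR estimated for it was 18.6%, against a trend of 8.64% for genes of its level. The mean was 10.4 ± 2.39 CPM with IL17B and 10.3 ± 3.15 CPM with PBS (SD, n = 3 each; log2 fold change 0.01 ± 0.22 (SE), edgeR adjusted p = 1.00). The 95% interval of the fold ran from 0.715 to 1.42, and the sign turned with the library left out, to -0.22 without PBS replicate 2 and -0.19 without IL17B replicate 3.

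Ocstamp encodes OC-STAMP, the partner of DC-STAMP in fusion (gene ID 74614, chromosome 2 from 165395450 to 165400394). Its counts were 4, 12 and 9 in IL17B replicates 1, 2 and 3, and 13, 11 and 3 in PBS replicates 1, 2 and 3. The groups overlapped, and the CV was 48.6% where counting alone gives 34.0%. The fold was poorly fixed (0.931, 95% interval 0.383 to 2.26, edgeR adjusted p = 0.998). On the TPM scale Dcstamp was above Ocstamp in each of the 6 libraries.

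The resorption enzyme genes Ctsk and Acp5 were at moderate and even levels. Ctsk encodes cathepsin K, the collagen-cutting protease of the resorption pit (gene ID 13038, chromosome 3 from 95499210 to 95509387). It was at 26.4, 22.7 and 28.1 CPM in IL17B replicates 1, 2 and 3, and at 25.8, 24.2 and 27.0 CPM in PBS replicates 1, 2 and 3. The highest and the lowest library were both IL17B libraries (log2 fold change 0.00 ± 0.08 (SE), 95% interval of the fold 0.879 to 1.14, edgeR adjusted p = 1.00). Acp5 encodes TRAP, the acid phosphatase whose stain marks osteoclasts (gene ID 11433, chromosome 9 from 22126727 to 22135746). It was at 17.5, 20.1 and 18.6 CPM in IL17B replicates 1, 2 and 3, and at 17.1, 17.6 and 19.2 CPM in PBS replicates 1, 2 and 3. The groups overlapped (log2 fold change 0.06 ± 0.08 (SE), 95% interval of the fold 0.925 to 1.18, edgeR adjusted p = 0.989).

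Mmp9 encodes gelatinase B, which osteoclasts and neutrophils both make (gene ID 17395, chromosome 2 from 164940326 to 164955850). Counts of 34, 39 and 53 were found in IL17B replicates 1, 2 and 3, and of 47, 40 and 40 in PBS replicates 1, 2 and 3. The groups overlapped, with a log2 fold change of -0.01 ± 0.22 (SE; 95% interval of the fold 0.711 to 1.39, edgeR adjusted p = 1.00), and a CV of 15.8% where counting alone gives 15.4%. Of 12 neutrophil markers 9 were in the table, and they summed to 16.6 to 18.8 CPM with IL17B and 15.3 to 18.0 CPM with PBS. Mmp8 and Cxcr2 gave most of this, and Mpo, Elane and Ngp had 2 counts or fewer over all 6 libraries. In bulk RNA, fewer cells of a type and less RNA per cell cannot be told apart.

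**Figure D3:**
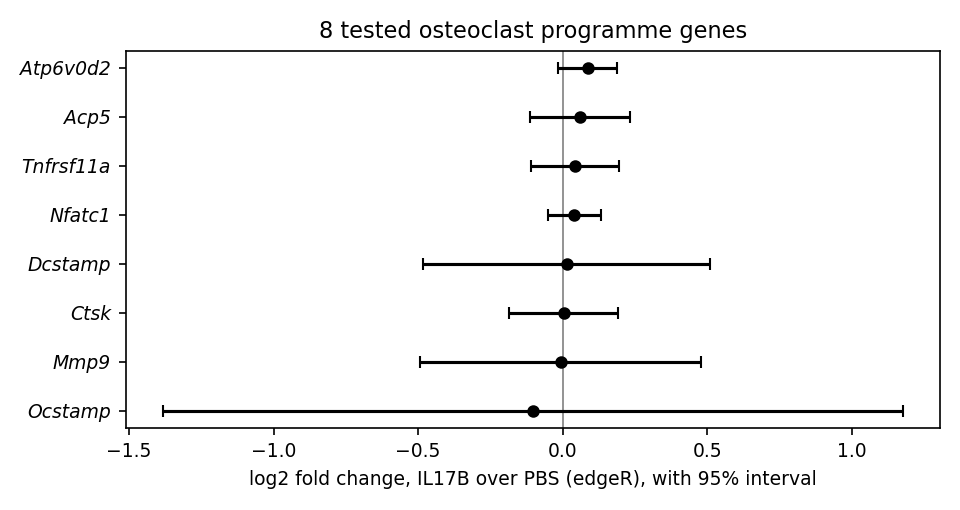
Log2 fold change of IL17B over PBS for the 8 tested genes (points) with 95% intervals from edgeR (bars). Every interval holds 0, and the interval widens from Nfatc1 (-0.05 to 0.13) to Ocstamp (-1.38 to 1.18).

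IL17B replicate 3 was a high library for most members and PBS replicate 2 for none. Among the 7 members with a mean of at least 1 CPM, IL17B replicate 3 was among the 2 highest libraries for 6 and among the 2 lowest for 0. PBS replicate 2 was among the 2 highest for 0 and among the 2 lowest for 4. The standardised mean profile of these members was -0.02, -0.13 and 1.80 in IL17B replicates 1, 2 and 3, and -0.25, -1.62 and 0.22 in PBS replicates 1, 2 and 3, in SD units. Dcstamp was nearest to this profile (root mean square distance 0.646 over the 6 libraries) and Nfatc1 farthest (1.21). Of 8674 other genes with a mean of at least 10 CPM, the 5 nearest were Snap47, Cdkn2aip, Rfx5, Dynlt3 and Banp (distances 0.167 to 0.258). Each profile rests on 6 points from the same libraries, and no test was made. Osteoblast and stromal markers, all 12 of which were in the table, summed to 49.4, 51.2 and 49.7 CPM in IL17B replicates 1, 2 and 3 and to 56.3, 72.4 and 54.6 CPM in PBS replicates 1, 2 and 3, with 3 counts or fewer over all libraries for Bglap and Ibsp. The stromal sum was thus highest in PBS replicate 2, the library where Dcstamp was lowest, and the part of stromal RNA in that value was not tested.

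**Figure D4:**
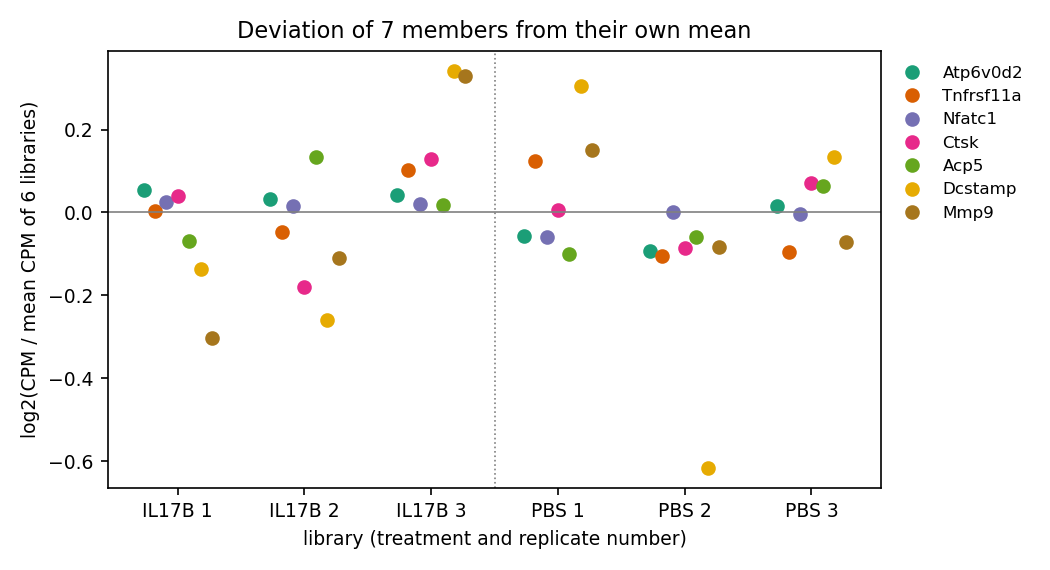
Log2 of the CPM over the mean CPM of the 6 libraries for the 7 genes with a mean of at least 1 CPM (1 colour per gene), with the IL17B libraries left of the dotted line and the PBS libraries right of it. Dcstamp lies highest in IL17B replicate 3 and lowest in PBS replicate 2, whereas Nfatc1 and Atp6v0d2 stay close to 0.

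The cells were macrophages by their markers in each library. All 12 macrophage markers had counts, with a sum of 29985 to 31725 CPM with IL17B and 29322 to 30846 CPM with PBS, and Csf1r, the M-CSF receptor, was at 2583 ± 25.9 TPM with IL17B and 2450 ± 109 TPM with PBS (SD, n = 3 each). The 10 markers of the mature osteoclast, 6 of them members, summed to 694 to 713 CPM with IL17B and 696 to 725 CPM with PBS. Over all 6 libraries, Atp6v0d2 had 40881 counts, Clcn7 32992, Itgb3 6516, Ctsk 3160, Acp5 2257 and Dcstamp 1272, whereas Ocstamp had 52, Car2 (carbonic anhydrase II) 28, Oscar 3 and Calcr (calcitonin receptor) 1. Dendritic cell markers summed to 2.94 to 3.47 CPM with IL17B and 2.92 to 3.54 CPM with PBS, and markers of B and T cells to 11.8 to 15.1 CPM with IL17B and 12.3 to 15.5 CPM with PBS. Hepatocyte markers (9 of 10 in the table) were at 0.343, 204 and 70.6 CPM in IL17B replicates 1, 2 and 3 and at 0.146 to 0.489 CPM with PBS, and IL17B replicates 2 and 3 thus stood apart. Without both libraries, an alternative chosen after seeing the data, 1 IL17B library was set against 3 PBS libraries, and the spread came from the PBS libraries alone. The log2 fold change was then 0.10 for Atp6v0d2, 0.04 for Nfatc1 and for Ctsk, 0.02 for Tnfrsf11a, -0.04 for Acp5, -0.13 for Dcstamp, -0.31 for Mmp9 and -1.14 for Ocstamp. No member was called, which in so small a fit says little about stability.

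Around the members, 126 genes in 7 lists were looked at, and 124 of them were tested. Of these edgeR called 0 in either direction, and DESeq2 and limma-voom also called 0. An unadjusted p under 0.05 was reached by 9 (7.26%, against 5.24% of all genes), and the CPM groups did not overlap for 12 (9.68%, against 9.92%). Both shares were near the background, and the median log2 fold change of each list lay between -0.04 and 0.02, where that of all genes was 0.00.

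The mean level of the 23 genes of RANK signalling lay between 0.00667 and 634 TPM, with a median of 24.9 TPM. The lowest was Tnfsf11, which encodes RANKL and had 1 count over all 6 libraries. Tnfrsf11b, which encodes the decoy receptor osteoprotegerin, was counted 4, 5 and 8 times in IL17B replicates 1, 2 and 3, and 17, 13 and 8 times in PBS replicates 1, 2 and 3. The CPM values were lower in each IL17B library, though IL17B replicate 3 and PBS replicate 3 had the same count (log2 fold change -1.14 ± 0.46 (SE), unadjusted p = 0.0323, edgeR adjusted p = 0.941). Tnfrsf11b is made by stromal cells and is 1 of the 12 stromal markers, giving at most 0.826 CPM of their sum. That sum was also lower in each IL17B library, and the part of stromal RNA in the value was not tested. The 12 markers did not all go this way. Col1a1 was lower in each IL17B library (13.6 ± 0.455 CPM with IL17B and 17.4 ± 2.78 CPM with PBS). Runx2 was level (13.6 CPM with each treatment), and Cxcl12 was higher in each IL17B library (1.47 ± 0.209 CPM with IL17B and 0.990 ± 0.153 CPM with PBS). Of all genes, 2.96% were higher and 2.28% lower at an unadjusted p under 0.05. Of the 22 tested genes of this list, 1 was higher and 1 (Tnfrsf11b) lower. The other was Cyld, a deubiquitinase that limits RANK signalling in mouse osteoclasts, at 72.1 ± 1.83 CPM with IL17B and 66.5 ± 3.04 CPM with PBS (log2 fold change 0.12 ± 0.05 (SE), edgeR adjusted p = 0.941). Sqstm1, the p62 scaffold of the pathway, was the most abundant at 614 ± 26.1 TPM with IL17B and 654 ± 62.2 TPM with PBS. The p38 kinase gene Mapk14 was at 125 ± 4.46 TPM with IL17B and 119 ± 4.49 TPM with PBS, and the NF-kB subunit gene Rela at 124 ± 1.56 TPM with IL17B and 120 ± 4.19 TPM with PBS (SD, n = 3 each).

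The ITAM arm works beside RANK to raise calcium and activate NFATc1. The mean level of its 19 genes over the 6 libraries lay between 0.428 and 3822 TPM with a median of 54.2 TPM, and the 3 highest are given here. Fcer1g, the FcRγ chain with which OSCAR pairs, was at 3856 ± 32.8 TPM with IL17B and 3789 ± 218 TPM with PBS, and Tyrobp, the DAP12 adaptor, at 3733 ± 154 TPM with IL17B and 3622 ± 71.4 TPM with PBS (SD, n = 3 each). Trem2, a receptor that pairs with DAP12, was at 1622 ± 81.1 TPM with IL17B and 1680 ± 49.7 TPM with PBS. Of the 19 genes tested, 0 had an unadjusted p under 0.05, against 5.24% of all genes. Lcp2, the SLP-76 adaptor, was the 1 gene whose CPM groups did not overlap (log2 fold change 0.09, edgeR adjusted p = 0.96). Over all tested genes that share was 9.92%.

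Among 19 transcription factor genes of osteoclast formation other than Nfatc1, 4 were higher and 0 lower at an unadjusted p under 0.05, against 2.96% of all genes higher. They were Prdm1, Tfec, Mef2d and Fosl2, and none passed the adjusted test. Prdm1 encodes Blimp1, a repressor of anti-osteoclastogenic genes in mice. It was at 57.9, 58.3 and 56.6 CPM in IL17B replicates 1, 2 and 3, and at 51.2, 51.7 and 54.6 CPM in PBS replicates 1, 2 and 3 (log2 fold change 0.13 ± 0.05 (SE), edgeR adjusted p = 0.909). Each IL17B library was above each PBS library. Tfec, a relative of MITF, was at 20.4, 21.9 and 20.8 CPM with IL17B and at 18.0, 18.9 and 19.1 CPM with PBS (log2 fold change 0.17 ± 0.06 (SE), edgeR adjusted p = 0.941), again without overlap. Mef2d was at 233, 220 and 218 CPM with IL17B and at 200, 202 and 216 CPM with PBS (log2 fold change 0.11 ± 0.05 (SE), edgeR adjusted p = 0.941). Fosl2, an AP-1 subunit, was at 82.9 ± 2.73 CPM with IL17B and 73.1 ± 9.41 CPM with PBS, and its groups overlapped. The most abundant factors were Spi1 (PU.1) at 658 ± 27.3 TPM with IL17B and 679 ± 18.6 TPM with PBS, Fos at 288 ± 19.1 TPM with IL17B and 282 ± 39.3 TPM with PBS, and Junb at 253 ± 9.20 TPM with IL17B and 252 ± 5.44 TPM with PBS (SD, n = 3 each). The 4 of 19 were the highest share of higher genes among the 7 lists, which were chosen with earlier results of these data known. Over the 7 lists together, 9 of 124 tested genes had an unadjusted edgeR p under 0.05 (7.26%, against 5.24% of all genes). No set test was made.

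Of 15 inhibitors of osteoclast formation, 1 had an unadjusted p under 0.05, against 5.24% of all genes. Id2, a helix-loop-helix protein that restrains osteoclast formation in mice, was at 138, 141 and 142 CPM in IL17B replicates 1, 2 and 3, and at 169, 172 and 147 CPM in PBS replicates 1, 2 and 3. Each IL17B library was below each PBS library (log2 fold change -0.21 ± 0.06 (SE), unadjusted p = 0.00584, edgeR adjusted p = 0.862). The inhibitory receptor gene Lilrb4a was at 1529 ± 77.4 TPM with IL17B and 1633 ± 64.4 TPM with PBS, and Id3 at 323 ± 19.6 TPM with IL17B and 319 ± 7.38 TPM with PBS (SD, n = 3 each).

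The mean level of the 20 fusion and adhesion genes lay between 0.252 and 1331 TPM (median 112 TPM), and that of the 24 genes of acid secretion and resorption between 0.005 and 16580 TPM (median 174 TPM). Of 20 tested fusion and adhesion genes 0 had an unadjusted p under 0.05, against 5.24% of all genes. Sirpa, the receptor for CD47, was at 1319 ± 26.4 TPM with IL17B and 1344 ± 22.4 TPM with PBS, with overlapping TPM groups. In CPM it was lower in each IL17B library (2479 ± 28.9 CPM with IL17B and 2531 ± 30.5 CPM with PBS, log2 fold change -0.03, edgeR adjusted p = 0.989). The metalloprotease gene Adam8 was at 1271 ± 50.0 TPM with IL17B and 1194 ± 83.1 TPM with PBS, and Anxa5 at 857 ± 38.8 TPM with IL17B and 868 ± 30.3 TPM with PBS. Itgb3, the beta3 chain of the vitronectin receptor of osteoclasts, was at 51.1 ± 1.48 CPM with IL17B and 54.8 ± 3.52 CPM with PBS (SD, n = 3 each). Of all genes, 2.96% were higher and 2.28% lower at an unadjusted p under 0.05. Of 23 tested genes of acid secretion and resorption, 0 were higher and 1 was lower. It was Mmp14, a membrane-type metalloproteinase, at 211, 191 and 188 CPM in IL17B replicates 1, 2 and 3, and at 217, 208 and 221 CPM in PBS replicates 1, 2 and 3 (log2 fold change -0.13 ± 0.05 (SE), edgeR adjusted p = 0.941), with overlapping groups. Ctsb and Ctsl, cathepsins of the lysosome, were at 16634 ± 254 TPM and 1691 ± 75.3 TPM with IL17B, and at 16526 ± 466 TPM and 1651 ± 77.4 TPM with PBS. Atp6v0c, the proton-carrying ring subunit of the V-ATPase, was at 2123 ± 39.0 TPM with IL17B and 2230 ± 34.2 TPM with PBS. In this list 1 gene was lower and 1 higher without overlap of the CPM groups, against 4.77% and 5.16% of all tested genes. Clcn7, the chloride exchanger of the resorption pit, was lower in each IL17B library (256 ± 3.24 CPM with IL17B and 281 ± 24.8 CPM with PBS, log2 fold change -0.13 ± 0.06 (SE), edgeR adjusted p = 0.949). Rab3d, a vesicle GTPase of the secretory path, was higher in each IL17B library (65.5 ± 1.18 CPM with IL17B and 60.7 ± 3.69 CPM with PBS, log2 fold change 0.11 ± 0.05 (SE), edgeR adjusted p = 0.96).

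On the TPM scale, the metalloproteinase genes Mmp12, Mmp14 and Mmp19 were each above Mmp9. So were the others looked at, whose lowest mean was 2.33 TPM, against 1.34 TPM for Mmp9. Mmp12, the macrophage elastase, was at 510 ± 75.5 TPM with IL17B and 493 ± 71.7 TPM with PBS (SD, n = 3 each). Mmp19 had an unadjusted p of 0.0265 and did not overlap between the groups, at 45.2, 47.6 and 47.0 CPM in IL17B replicates 1, 2 and 3, and at 40.7, 41.6 and 44.6 CPM in PBS replicates 1, 2 and 3 (log2 fold change 0.14 ± 0.05 (SE), edgeR adjusted p = 0.941).

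**Figure D5:**
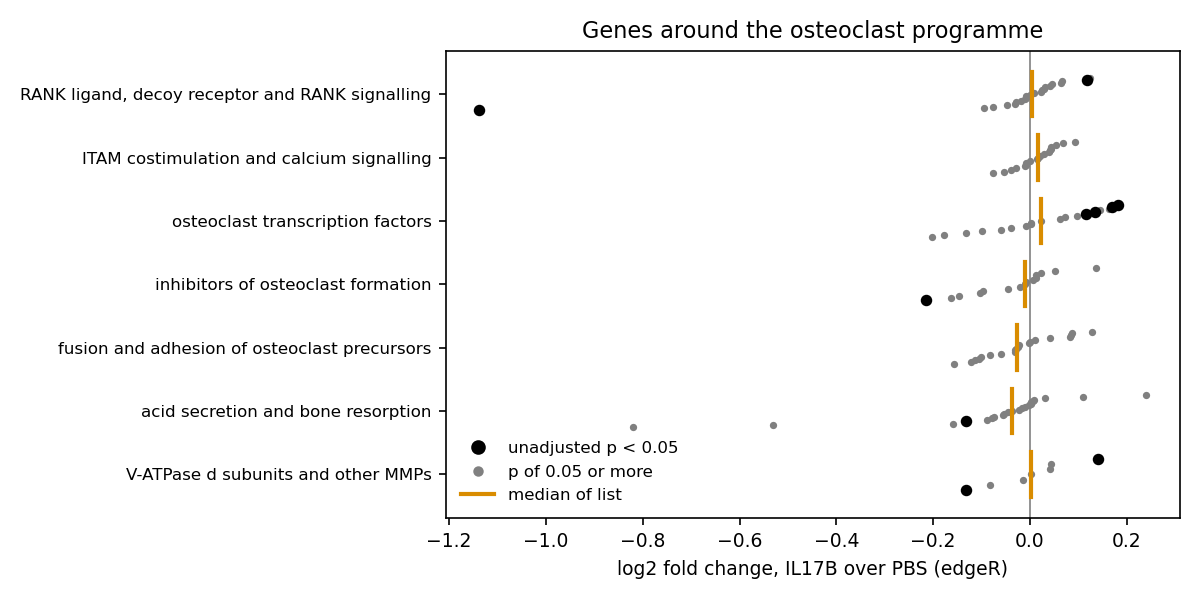
Log2 fold change of IL17B over PBS for the tested genes of the 7 lists (1 point per gene, black where the unadjusted p is under 0.05), with the median of each list as a bar. Medians lie between -0.04 and 0.02, and the farthest point is Tnfrsf11b at -1.14.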

How the data were processed

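Bulk RNAseq of 6 BMDM samples was analysed, 3 treated with IL17B and 3 with PBS. Reads were single-end and 50 bases long. Per the labels and the methods, the authors filtered the reads, mapped them with HISAT2 2.0.4 (GRCm38.p6) and Bowtie2 2.2.5 (coding gene set), and estimated a count per gene with RSEM 1.2.12. The deposited table holds these estimated counts and, from the same run, the authors' TPM and FPKM values. RSEM divides reads that match several genes, and of the 54 estimated counts of the members 45 were whole. Columns of means were not used.

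Estimated counts were rounded, and genes with at least 15 counts in total were compared in R 4.3.3 by the quasi-likelihood test of edgeR 4.0.16 (TMM, Benjamini-Hochberg adjusted p of at most 0.05). The TMM factors lay between 0.994 and 1.01. Intervals are 95% intervals from the fitted fold change, its SE and the test's degrees of freedom. DESeq2 1.42.0, limma 3.58.1 (voom, or log2 of TPM plus 0.1 or 1 and of FPKM plus 0.1), other scalings and filters, left-out libraries and a replicate block were tried. The steps were tested on simulated counts. An exact permutation test of 3 against 3 cannot go below p = 0.1, so none is given.

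Profiles were compared on standardised log2(CPM + 0.5). Coordinates and promoters come from RefSeq (GRCm38.p6), matched by gene ID (16854 of 16978 matched). The members and lists were chosen with earlier results of these data known. Genes named are the 9 members, Csf1r, the 5 genes nearest to their profile, and of each list the 3 with the highest mean TPM and up to 3 with the smallest unadjusted p under 0.05. One gene that this rule names is not reported here. Fosl2, Lcp2, Clcn7, Rab3d, Itgb3, Car2, Calcr, Tnfsf11, Bglap, Ibsp, Col1a1, Col1a2, Col3a1, Dcn, Runx2, Cxcl12, Mmp8, Cxcr2, Mpo, Elane and Ngp were named after their values were seen.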

Additional observations from a re-analysis of the deposited data

How the results depend on the processing

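Under each of the 17 alternatives 0 osteoclast programme members and 0 genes of the 7 lists were called. Over all genes, where edgeR called 0, DESeq2 called 6, limma on log2(TPM + 0.1) and on log2(FPKM + 0.1) called 1 each, and the fits that left out 1 library called 0 to 86, with 86 called without IL17B replicate 1. With a replicate block 76 were called. Same-numbered samples did not deviate together (r = -0.14, 0.01 and -0.13 over 8680 genes for numbers 1, 2 and 3), and no sample correlated best with its own number, so the numbers were not taken to pair the samples. The sign of the fold change was kept under all 17 alternatives for Atp6v0d2 (0.06 to 0.12), Nfatc1 (0.02 to 0.05) and Tnfrsf11a (0.00 to 0.12), under 16 for Acp5 (-0.04 to 0.11), under 14 for Ctsk (-0.06 to 0.09), Dcstamp (-0.22 to 0.20) and Mmp9 (-0.31 to 0.12), and under 13 for Ocstamp (-1.14 to 0.25). The lowest unadjusted p of Atp6v0d2 was 0.0379, without PBS replicate 3 (adjusted p = 0.708 by edgeR). The order of the 9 members by mean TPM was the same in FPKM, and 7 to 9 members kept their place with 1 library left out, since Tnfrsf11a and Nfatc1 changed places without IL17B replicate 3 or PBS replicate 1. Depth limits Oscar and Ocstamp, whose 3 and 52 counts over all libraries leave no or a wide interval.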
